A study of Mus musculus with 3 samples.

Results

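Pericytes of the mouse pancreatic islet, the contractile cells that sit on the outside of capillaries, were described from 160 cells found among 7490 kept cells of 3 single-cell RNA libraries. A cell was taken as a pericyte when it held at least 1 transcript of 3 or more of 7 genes, Rgs5, Pdgfrb, Cspg4, Abcc9, Kcnj8, Notch3 and Acta2. It could hold at most 1 of the fibroblast genes Pdgfra, Dcn and Lum and at most 1 of the endothelial genes Plvap, Flt1 and Pecam1, and hormone transcripts (Ins1, Ins2, Gcg, Sst and Ppy) had to stay under 20% of its unique molecular identifiers (UMIs, which count transcripts). Kept cells had at least 500 genes and at most 15% of UMIs from mitochondrial genes. The cells were thus chosen by measured counts of these genes, whose values are given as a description without a test. No part of the rule leaves out vascular smooth muscle cells, so the members may include them. The islets came from non-diabetic female NOD-SCID mice, 10 to 11 weeks old, an immunodeficient strain that lacks mature T and B cells. Collagenase was delivered through the bile duct, islets were taken from a density gradient and cells were freed with TrypLE. Each mouse gave 1 library, the 3 mice form 1 group, and the labels name no treatment or injury, so every comparison lies between cells of the same mice.

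Pericytes wrap capillaries and share a basement membrane with the endothelium. They are recruited by platelet-derived growth factor B from endothelial cells, which acts on the receptor encoded by Pdgfrb, and Notch3 keeps them in a mural state. Their tone follows calcium entry, endothelin and noradrenaline on the contracting side, and potassium channels and nitric oxide on the relaxing side. In mouse islets they are known to narrow capillaries and to supply factors that keep beta cells mature.

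The libraries of mice 1, 2 and 3 gave 17, 29 and 114 pericytes of 1145, 2705 and 3640 kept cells. Pericytes were 1.90% ± 1.09 (SD, n = 3) of kept cells, and mouse 3 held most of them. The exact Clopper-Pearson intervals, which cover counting error only, were 0.867% to 2.37%, 0.719% to 1.54% and 2.59% to 3.75% in mice 1, 2 and 3. Median depth was 7791, 5864 and 3795 UMIs per pericyte, and the summed counts behind each mouse were 199625, 221420 and 461529 UMIs. Endothelial cells, chosen in a similar way from 7 markers with at most 1 pericyte gene allowed, numbered 53, 88 and 258, with median depths of 9203, 5099.5 and 4288 UMIs. Fibroblasts numbered 4, 8 and 22, and hormone-rich endocrine cells 670, 1778 and 2354, both also with at most 1 pericyte gene allowed. Mice 1 and 2 shared 148 barcodes, 14 of them between kept cells, and no pericyte shared a barcode with a kept cell of another mouse.

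Few cells lay just below the threshold of the rule. Among cells that met the other parts of the rule, 1726 held none of the 7 genes, 287 held 1 and 17 held 2, while 19, 45, 43, 41 and 12 cells held 3, 4, 5, 6 and 7. The 17 cells just outside the threshold had a median of 15351 UMIs, and all of them held Rgs5, 12 held Cspg4 and none held Kcnj8 or Acta2. The 19 cells just inside had a median of 2898 UMIs, all held Rgs5, and 6 held Kcnj8 and 9 held Acta2. Of 191 kept cells with 3 or more of the genes, 13 were left out for fibroblast genes, 6 for endothelial genes and 13 for hormone transcripts, some for more than 1 reason.

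A small number of members stood apart. Markers of duct epithelium, at least 3 of 12, were found in 9 pericytes, at least 3 endothelial markers in 3 and macrophage markers in 1, which makes 13 cells, 5, 4 and 4 in mice 1, 2 and 3. The deepest pericyte of mouse 1 had 50032 UMIs, 11 duct markers and 1650 UMIs of Spp1, the duct gene osteopontin, and alone gave 25.1% of that mouse's pericyte UMIs. Its counterpart in mouse 2 had 58604 UMIs, 12 duct markers and 2589 UMIs of Spp1, and gave 26.5%, while the most duct-rich pericyte of mouse 3 had 12533 UMIs, 9 duct markers and gave 2.72%. These 3 cells held exactly 3 of the 7 pericyte genes each. The 13 cells together held 42.3%, 37.2% and 8.42% of pericyte UMIs in mice 1, 2 and 3. They meet the rule and were kept, and values without them, from 12, 25 and 110 cells, stand beside some of the results they touch.

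Another 4 members had no UMI of Rgs5, 2 each in mice 1 and 3, and they held 23.7% and 2.63% of the pericyte UMIs of these mice. In mouse 1 these 2 cells gave 974 of 1074 UMIs of Acta2 and 1162 of 1208 UMIs of the smooth muscle gene Tagln. The contractile levels of mouse 1 thus rest on them. In mouse 2, 2 cells gave 128 of 214 UMIs of Acta2 and 104 of 194 of Tagln. Values without the 4 members that lack Rgs5 were added after seeing the data.

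Markers of other cell types were otherwise low in the summed pericytes. The 12 endothelial markers made up 0.0245%, 0.0239% and 0.0557% of UMIs against 1.44% to 1.97% in endothelial cells, and Flt1, Cdh5, Tie1, Cldn5 and Ramp2 were at 0. The 10 fibroblast markers made up 0.0476% to 0.0988%, with Pdgfra, Lum, Dpt, Clec3b, Pi16, Cd34 and Ly6c1 at 0, against 2.18% to 3.60% in fibroblasts. Duct markers reached 1.10%, 1.48% and 0.0698%, and markers of enzyme-making acinar cells 1.14%, 2.28% and 0.384% against 1.06%, 2.94% and 0.362% in endothelial cells. Hormone transcripts took 4.67%, 5.25% and 2.96% of pericyte UMIs and 5.90%, 4.05% and 2.80% of endothelial UMIs. The part of these transcripts in the results below was not tested.

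The 7 genes of the rule concern contraction, G-protein and Notch signalling, the vascular potassium channel, a growth factor receptor and a proteoglycan. Levels are given throughout as CPM, the UMIs of a gene per 1000000 UMIs summed over the class, in mice 1, 2 and 3. Rgs5 (ENSMUSG00000026678, GRCm38 chr1:169655501-169695813), which shortens signalling by G-protein coupled receptors, stood at 3136, 5302 and 6496 CPM in pericytes and 34.8, 22.3 and 4.25 CPM in endothelial cells. Rgs5 was lowest in mouse 1 and still far above every endothelial value. Acta2 (ENSMUSG00000035783, chr19:34241090-34255590), smooth muscle actin, stood at 5380.1, 966 and 4505 CPM. Without the 4 members that lack Rgs5 it stood at 657, 966 and 4210.4 CPM, so the lowest value lay in mouse 2 with them and in mouse 1 without them. Acta2 was at 0, 0 and 1.70 CPM in endothelial cells and 0, 0 and 84.6 CPM in fibroblasts.

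The other genes of the rule, receptors, a proteoglycan and channel subunits, differed less between mice when all members were counted. Notch3 (chr17:32120820-32166852) stood at 371, 379 and 583 CPM and Pdgfrb, the receptor of platelet-derived growth factor B, at 336, 402 and 466 CPM. Cspg4 (chr9:56865033-56899870), the NG2 proteoglycan, stood at 180.3, 185 and 275 CPM. Kcnj8 (chr6:142564837-142571614) and Abcc9 (chr6:142587862-142702315), which encode the pore Kir6.1 and the sulphonylurea receptor SUR2 of the vascular ATP-sensitive potassium channel, are neighbours on the same strand of chromosome 6. Kcnj8 stood at 235, 244 and 336 CPM and Abcc9 at 255, 248 and 260.0 CPM. These levels include the 13 members with markers of other types, which held 42.3%, 37.2% and 8.42% of pericyte UMIs in mice 1, 2 and 3. In mouse 1, 2 of those members gave 27 of 47 UMIs of Kcnj8 and 27 of 51 of Abcc9. The order of the mice depends on such cells. Fibroblasts reached 162, 0 and 31.7 CPM of Notch3 and 0, 0 and 74.0 CPM of Pdgfrb. Pericyte values lay above all endothelial, fibroblast and endocrine values for each of the 7 genes, which the choice of cells sets.

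**Figure D1:**
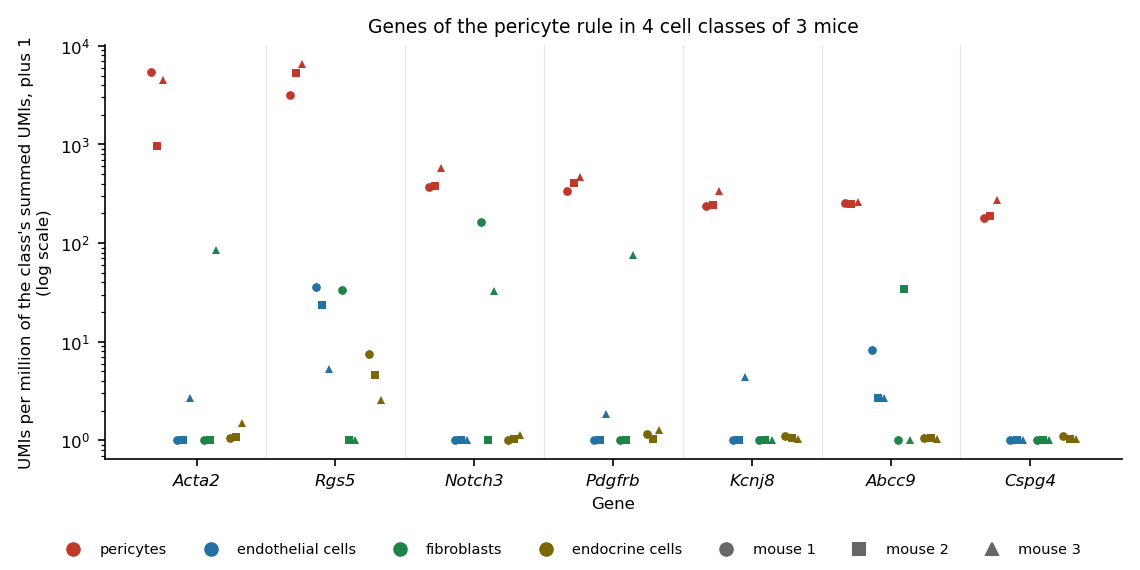
Levels of the 7 rule genes in the summed cells of each class and mouse, as CPM plus 1 on a log axis; colours mark the class and symbols the mouse. Pericyte points for Kcnj8 run from 235 to 336 and for Rgs5 from 3136 to 6496, above all points of the other classes, while the pericyte value of Acta2 in mouse 2 (966) lies below those of mice 1 and 3, of which that of mouse 1 rests on 2 cells.

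Most members held Rgs5, Notch3 and Pdgfrb, and fewer held the other genes of the rule. Rgs5 had at least 1 UMI in 97.5% of pericytes, 3.77% of endocrine cells and 2.51% of endothelial cells. Median depths of endocrine cells, 10111.5, 6611 and 17074 UMIs in mice 1, 2 and 3, were above those of pericytes. Notch3 was found in 83.1% of pericytes, Pdgfrb in 81.2%, Acta2 in 59.4%, Cspg4 in 58.1%, Abcc9 in 55.0% and Kcnj8 in 54.4%. In endocrine cells, which should lack them, Notch3 was found in 0.146%, Pdgfrb in 0.333%, Acta2 in 0.354%, Cspg4 in 0.0625%, Abcc9 in 0.0833% and Kcnj8 in 0.104%. Kcnj8 and Abcc9 were seen together in 59 cells, of 87 with Kcnj8 and 88 with Abcc9, whereas Kcnj8 and Acta2 were seen together in 39.

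Transcripts of Acta2, Tagln, Myh11, Pln and Actg2 were spread unevenly over the members, and those of Ndufa4l2, Rgs5, Pdgfrb and Higd1b less so. The 16 cells with the most UMIs of Acta2 held 68.7% of all Acta2 UMIs, and the corresponding shares were 71.5% for Tagln, 68.0% for Myh11, 82.9% for Pln and 98.1% for Actg2. The top 16 cells held 24.2% of Ndufa4l2, 29.5% of Rgs5, 29.6% of Pdgfrb and 31.6% of Higd1b. Kcnj8 (55.5%), Abcc9 (45.1%) and the contractile gene Myl9 (49.2%) fell between. Actg2 was found in 18 of the 160 cells and Pln in 27, against 151 for Ndufa4l2.

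Outside the rule, Tagln, Mgp, Tpm2 and Myl9 had the highest ratios of pericytes to all other kept cells. This order is a description, with 20 CPM added to both sides and a floor of 10% detection. Tagln (ENSMUSG00000032085, chr9:45929619-45936058), the actin-binding transgelin, stood at 6051, 876 and 3311 CPM against a mean of 4.58 CPM in other cells. Its ratio was 139.6, the highest of any gene outside the rule. Without the 4 members that lack Rgs5 it stood at 302, 876 and 3059.9 CPM with a ratio of 58.3, behind Mgp (100.2), Ndufa4l2 (68.7) and Myl9 (61.4), and mouse 1 was lowest. Mgp (chr6:136872435-136875823), the matrix Gla protein that inhibits calcification, stood at 6096, 7583 and 8689 CPM against 60.2 CPM, a ratio of 93.2. Mouse 3 was highest for Mgp in pericytes, and fibroblasts held 1553, 5048 and 11991 CPM of it, so that in mouse 3 they exceeded pericytes.

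The remaining leading genes fell into a few groups. Tpm2 (beta-tropomyosin, ratio 91.1), Myl9 (the regulatory myosin light chain, 87.3), Myh11 (the smooth muscle myosin heavy chain, 60.3), Des (desmin, 32.8), Tpm1 (26.8) and Mylk (myosin light chain kinase, 24.7) belong to the contractile apparatus. Ndufa4l2 (65.2), Cox4i2 (52.1) and Higd1b (40.5) encode mitochondrial proteins with a more widely expressed paralog. Gng11, a G-protein gamma subunit (36.2), Gucy1a1, a subunit of soluble guanylyl cyclase (26.5), and the endothelin receptor Ednrb (24.5) are signalling genes. The list also held Aspn, a small leucine-rich proteoglycan (36.6), Crip1 (31.0), Ifitm1 (30.9), Mustn1 (30.1), the transcription factor Nr2f2 (23.7) and the gene model Gm13889 (29.0).

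**Figure D2:**
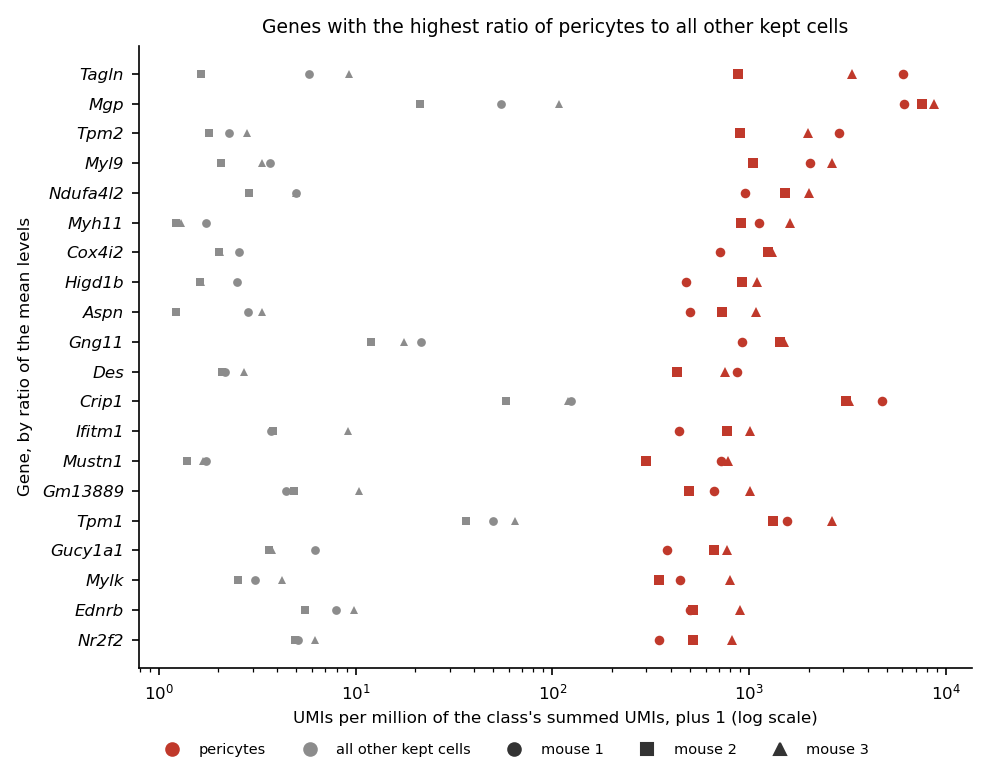
The 20 genes outside the rule with the highest ratio of pericytes to all other kept cells, one row per gene, with CPM plus 1 on a log axis; red points are pericytes, grey points all other kept cells, and symbols mark the mouse. Red and grey points are separate for all 20 genes, and Tagln runs from 876 to 6051 in pericytes, its highest value resting on 2 cells of mouse 1.

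Pericytes were next compared with endothelial cells of the same mice, the other cell of the capillary wall. Of 4349 genes tested outside the rules, 718 were higher in pericytes (16.5%) and 792 were lower (18.2%) by edgeR's quasi-likelihood test with the mouse as a block, at a Benjamini-Hochberg adjusted p of 0.05. The median log2 fold change of all genes tested was 0.04, and the counts of each list below stand beside these shares. Without the 13 members described above, 707 were higher and 781 lower of 3763 tested. These p-values reflect variation among 3 animals, and add nothing for the classes having been drawn from the same cells.

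Of the 10 largest differences upward, 6 were in genes at 0 in the endothelial cells of all mice. Myh11 (ENSMUSG00000018830, chr16:14194535-14291372) stood at 1122, 908 and 1606 CPM in pericytes and at 0 in the endothelial cells of all 3 mice. In mice 1 and 2, 2 cells gave 166 of 224 and 147 of 201 UMIs of Myh11. The other pericytes of these mice stood at 381 and 269 CPM. Set against a floor of 3 UMIs over the endothelial cells of the 3 mice, Myh11 with all members was at least 1014-fold higher (adjusted p = 3.72e-11, edgeR). Higd1b was at least 697-fold higher, Aspn at least 659-fold, Map3k7cl at least 294-fold, G0s2, an inhibitor of triglyceride lipase, at least 263-fold and Pdlim3, a muscle LIM protein, at least 244-fold, all against 0 in endothelial cells. Myl9, Tpm2, Tagln and Ndufa4l2 completed the 10 largest. A gene at 0 in a class could pass the filter only through the other classes, so its fold and p, here and below, are a description.

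Downward, the 10 largest differences were genes at 0 in every pericyte sum. Ly6c1 stood at 2039, 2060.1 and 2715 CPM in endothelial cells and was at least 703-fold lower in pericytes. Rbp7 (at least 638-fold), Esm1, the endothelial proteoglycan endocan (631-fold), Ctla2a (388-fold), the vascular phosphatase Ptprb (294-fold), the adrenomedullin co-receptor Ramp2 (244-fold), Clec14a (196-fold), Cd34 (185-fold), Fam167b (142-fold) and Cyyr1 (129.9-fold) followed, each as a lower bound. Fam167b and Cyyr1 missed the threshold in DESeq2, with adjusted p of 0.0532 and 0.0547.

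**Figure D3:**
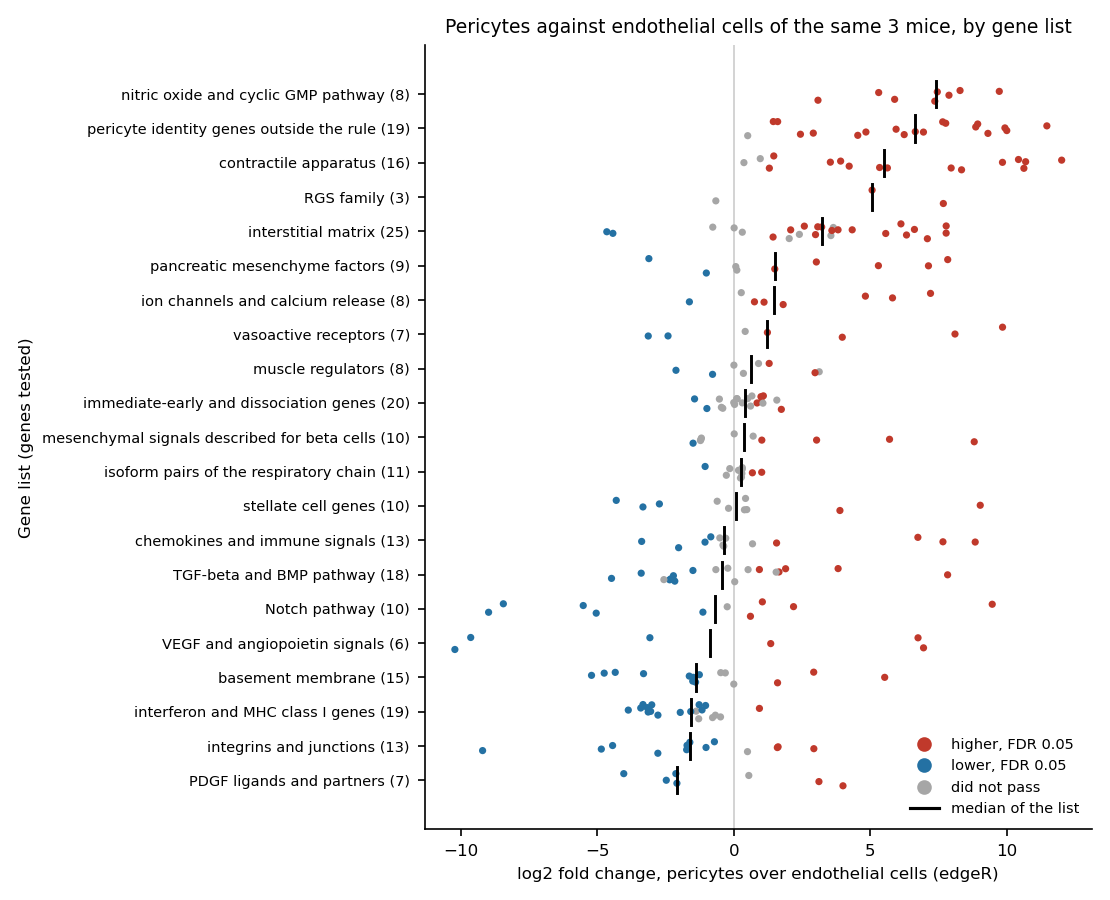
Log2 fold change of pericytes over endothelial cells for each tested gene of 21 lists, one point per gene, with the number tested in brackets; red and blue mark genes higher or lower at an adjusted p of 0.05, grey those that did not pass, and a black bar the list's median. Points of genes at 0 in a class depend on edgeR's prior count. The nitric oxide list has its median at 7.41 and the contractile list at 5.48, while the PDGF list lies at -2.08.

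The contractile apparatus was higher in pericytes almost throughout. Its list, like the others, was chosen with earlier results of these data known, so its counts are a description. Of 20 genes in the list, 16 were tested, 14 were higher, none was lower and 2, Csrp1 and Smtn, missed the threshold, with a median log2 fold change of 5.48. Tagln stood at 6051, 876 and 3311 CPM in pericytes against 5.50, 0 and 1.70 CPM in endothelial cells (log2 fold change 10.43 ± 0.46 SE, adjusted p = 5.04e-12, edgeR). Myl9 stood at 2039, 1039 and 2633 CPM against 3.67, 0 and 0 CPM (10.69 ± 0.55, adjusted p = 1.96e-11). Pericyte and endothelial values did not overlap for either gene. Without the 4 members that lack Rgs5, 14 of the 16 were higher as well, with Myl9 at 459.7, 1039 and 2497 CPM. Ppp1r14a, an inhibitor of myosin phosphatase (7.96), Lmod1, which nucleates actin filaments (8.34), Des (9.84) and Mylk (5.63) were also higher. Csrp1 stood at 546, 90.3 and 182 CPM against 110.0, 92.7 and 157 CPM and was above the endothelial range in mice 1 and 3 only, and it passed without mouse 3 (adjusted p = 0.0313).

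Smooth muscle genes are known to carry CArG boxes, the sites of serum response factor, in their promoters, so the 250 bases before the RefSeq start (GRCm38.p6) were searched on both strands. The strict box was found in 439 of 27025 promoters (1.62%) and in 1 of 18 contractile genes with an entry, Myl9. With at most 1 of the middle 6 bases not A or T, a form chosen after seeing the strict result, it was found in 2643 promoters (9.78%) and in 2 of the 18 (11.1%), Acta2 and Myl9. The promoters of these 2 genes are shown because they are the contractile genes in which a box was found, while Tpm2, with levels like those of Myl9, held none. Tagln, Myh11 and Actg2 were not searched. Capitals mark the boxes, which start 84 and 34 bases before the start of Acta2, and 161 and 99 before that of Myl9. In GENCODE M21 the outermost starts of Acta2 (34255590) and Myl9 (156775420) lie inside the windows shown.
Acta2, chr19:34255374-34255623, minus strand: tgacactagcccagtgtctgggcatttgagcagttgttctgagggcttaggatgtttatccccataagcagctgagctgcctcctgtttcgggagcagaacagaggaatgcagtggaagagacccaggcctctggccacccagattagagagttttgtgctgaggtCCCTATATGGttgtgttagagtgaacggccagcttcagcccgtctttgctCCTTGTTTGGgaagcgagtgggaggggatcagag
Myl9, chr2:156775214-156775463, plus strand: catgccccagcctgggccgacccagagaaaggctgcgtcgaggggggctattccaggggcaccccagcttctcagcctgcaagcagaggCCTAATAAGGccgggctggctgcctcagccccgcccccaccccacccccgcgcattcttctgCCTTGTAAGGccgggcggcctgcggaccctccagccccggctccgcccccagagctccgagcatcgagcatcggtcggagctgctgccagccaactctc
A match is a description of letters and not evidence that the factor binds there.

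All 8 tested genes of the nitric oxide and cyclic GMP pathway, of 13 in the list, were higher in pericytes. Higher genes made up 16.5% of all genes tested. The median log2 fold change of the 8 was 7.41, or 5.88 with genes at 0 in endothelial cells set to their bound. Of the 8, 3 were at 0 in endothelial cells and passed the filter only through the other classes. Gucy1a1 (ENSMUSG00000033910, chr3:82092427-82145789), which with Gucy1b1 forms the nitric oxide receptor, stood at 381, 659 and 771 CPM against 3.67, 0 and 1.70 CPM (log2 fold change 8.29 ± 0.44, adjusted p = 2.07e-11, edgeR). Gucy1b1 stood at 416, 519 and 676 CPM against 14.7, 13.7 and 13.6 CPM (5.31 ± 0.29). Mouse 1 was lowest for both subunits and remained above all endothelial values. Pde5a, the phosphodiesterase that ends the cyclic GMP signal (5.89), Pde3a (at least 213-fold), Pde1a (7.88), Mrvi1, a target of the cyclic GMP kinase at the calcium store (7.36), Gucy1a2 (7.45) and the adenylyl cyclase Adcy6 (3.08) were higher too. The kinase gene Prkg1 fell below the filter, at 25.0, 22.6 and 91.0 CPM in pericytes and 14.7, 6.87 and 11.1 CPM in endothelial cells. Nos3, the endothelial nitric oxide synthase, stood at 0, 9.03 and 0 CPM against 31.2, 42.9 and 41.7 CPM and was not tested.

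Receptors for vasoactive agents were mostly too low to test. Of 36 in the list, 7 were tested, of which 4 were higher, 2 lower and 1 did not pass. Ednra (ENSMUSG00000031616, chr8:77663031-77724464), the endothelin receptor of smooth muscle, stood at 260.5, 194 and 353 CPM in pericytes and at 0 in endothelial cells, at least 224-fold higher (adjusted p = 2.48e-11, edgeR). Ednrb, the other endothelin receptor, was found in both cell types, at 496, 515 and 897 CPM against 222, 245 and 358 CPM (log2 fold change 1.23 ± 0.25, adjusted p = 4.03e-04). Each mouse had more Ednrb in its pericytes, and the ranges did not overlap, although the call was lost with members limited to 5% hormone transcripts (adjusted p = 0.0669). Npy1r, a receptor of the sympathetic peptide neuropeptide Y, stood at 70.1, 81.3 and 338 CPM against 1.83, 0 and 0 CPM (8.10 ± 0.57), highest in mouse 3. The calcitonin-type receptor Calcrl (-3.13) and the thromboxane receptor Tbxa2r (-2.41) were lower, and the thrombin receptor F2r was close, at 90.2, 81.3 and 86.7 against 67.8, 49.8 and 77.4 CPM.

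Other receptors of this list give a picture by level only. Agtr1a, the angiotensin receptor, stood at 40.1, 67.7 and 156 CPM in pericytes, was found in 43.1% of them and was at 0 in endothelial cells. Adra2a stood at 20.04, 63.2 and 47.7 CPM against 7.33, 0 and 2.55 CPM, and endocrine cells held 17.2, 20.9 and 15.9 CPM. Adra1a was at 0, 0 and 19.5 CPM and Avpr1a, the vasopressin receptor, at 15.03, 4.52 and 15.2 CPM. Ramp1, a subunit of the receptor of calcitonin gene-related peptide, was called higher (3.97, adjusted p = 5.53e-04, edgeR), yet only 10.00% of pericytes held it and its levels changed from 80.2, 108 and 60.7 CPM to 69.5, 0 and 37.9 CPM without the 13 members, when it was no longer tested. Without mouse 1 or mouse 2, 12 genes of the list were tested and 8 and 7 were higher, with 4 lower without mouse 2.

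Of 23 ion channel and calcium store genes, 8 were tested, of which 6 were higher and 1 lower, with a median of 1.46. Ano1, the calcium-activated chloride channel, stood at 130.2, 167 and 184 CPM against 0, 0 and 1.70 CPM (log2 fold change 7.20 ± 0.49, adjusted p = 2.08e-10, edgeR). Its pericyte values were close in the 3 mice. Kcnk3, a background potassium channel (5.81), Cacna2d1, an auxiliary calcium channel subunit (4.82), the calcium pump Atp2a2 (1.81), the store channel Itpr1 (1.11) and the store sensor Stim1 (0.76) were higher, but Itpr1 lost the call without mouse 2 and Stim1 with each mouse left out in turn and without the mouse as a block. Orai1, the channel that Stim1 opens, was lower, at 5.01, 36.1 and 45.5 CPM against 93.5, 108 and 104 CPM (-1.63, adjusted p = 0.00202). Cacna1c, the pore of the L-type calcium channel, stood at 30.1, 67.7 and 65.0 CPM against 5.50, 0 and 0.851 CPM and was not tested.

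Besides Rgs5, 3 of 18 genes of the RGS list were tested. Rgs4, a relative of Rgs5 that follows it on chromosome 1 (chr1:169741477-169747642), stood at 837, 696 and 1242 CPM against 7.33, 0 and 5.96 CPM (log2 fold change 7.67 ± 0.43, adjusted p = 4.15e-11, edgeR). Rgs7bp, which anchors RGS proteins to the membrane, was higher (5.06), and Rgs3 stood at 60.1, 58.7 and 32.5 CPM against 60.5, 87.6 and 80.0 CPM without passing. Without mouse 1 Rgs3 passed as lower (-0.97, adjusted p = 0.0453). Without mouse 2, 4 of 7 tested were higher and 1 lower. Rgs2 was found in 10.6% of pericytes and 42.9% of endocrine cells.

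Genes known to mark pericytes, beyond those of the rule, were higher in 18 of 19 tested of 25, with a median log2 fold change of 6.65, or 5.94 with genes at 0 set to their bound. The cells were chosen by other marker genes and the list with earlier results known, so this count is a description. Vtn, vitronectin, stood at 356, 474 and 553 CPM against 3.67, 12.02 and 0.851 CPM (log2 fold change 6.65 ± 0.42, adjusted p = 1.86e-10, edgeR), while fibroblasts held 226, 216 and 174 CPM. Nr2f2, also called COUP-TFII, stood at 346, 515 and 815 CPM against 5.50, 15.5 and 4.25 CPM (6.24). Pericyte and endothelial values did not overlap for either gene. Heyl, a Notch target, was at 125, 108 and 184 CPM against 0, and Aoc3, a vascular amine oxidase, at 135, 185 and 249 CPM against 0. Tbx2 (4.84), the connexin gene Gja4 (1.61) and Ebf1 (1.45) were higher with clear endothelial levels of the last 2, 178, 105 and 151 and 220.0, 211 and 237 CPM, and both calls were lost with members limited to 5% hormone transcripts (adjusted p = 0.112 and 0.0559). Mcam, the adhesion molecule CD146, stood at 235, 131 and 193 CPM against 182, 115 and 115 CPM and did not pass (adjusted p = 0.0875), but without the 13 members it stood at 348, 208 and 199 CPM and passed (0.95, adjusted p = 5.05e-04). Tbx18, a mural factor in many mouse tissues, was at 0 in all 4 classes.

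The mitochondrial paralogs gave a contrast within gene pairs. Cox4i2 (ENSMUSG00000009876, chr2:152754173-152765037), an isoform of a cytochrome oxidase subunit, stood at 706, 1237 and 1309 CPM against 1.83, 0 and 0.851 CPM (log2 fold change 9.93 ± 0.46, adjusted p = 1.96e-11, edgeR). Its common isoform Cox4i1 stood at 741, 736 and 819 CPM against 623, 613 and 764 CPM and did not pass (0.24 ± 0.24, adjusted p = 0.493). The ranges of Cox4i1 overlapped between the classes, and those of Cox4i2 did not. Ndufa4l2 (chr10:127514967-127517154) stood at 952, 1517 and 2019 CPM against 1.83, 0 and 1.70 CPM (10.00 ± 0.48), whereas Ndufa4, also part of cytochrome oxidase, was lower at 281, 285 and 160.3 CPM against 508, 567 and 434 CPM (-1.05 ± 0.26, adjusted p = 0.00318). Without the 13 members Ndufa4 stood at 217, 79.1 and 137 CPM, and with members limited to 5% hormone transcripts the call was lost (adjusted p = 0.202).

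Higd1b (chr11:102835849-102838040) stood at 476, 917 and 1089.9 CPM in pericytes and at 0 in endothelial cells, while its paralog Higd1a stood at 195, 104 and 91.0 against 103, 109.9 and 118 CPM and did not pass. In fibroblasts Ndufa4l2 reached 97.0, 365 and 264 CPM, Cox4i2 was at 0 and Higd1b at 0, 0 and 5.29 CPM. Of the 11 tested common subunits of the respiratory chain, 2 were higher, Cox8a (1.02) and Cox7b (0.68), and Ndufa4 was lower, with a median of 0.28. Higher and lower genes made up 16.5% and 18.2% of all genes tested. Cox7b missed the threshold in DESeq2, without the mouse as a block, with no filter on low counts, with hormone transcripts under 5%, and without mouse 2 (adjusted p = 0.34) or mouse 3. Cox8a missed it without mouse 3, when edgeR called 0 of the 11 higher and 1 had an unadjusted p under 0.05, and 1 was higher without mouse 2. Higd1b was detected in 86.2% of pericytes, 0.416% of endocrine cells and 0% of endothelial cells.

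**Figure D4:**
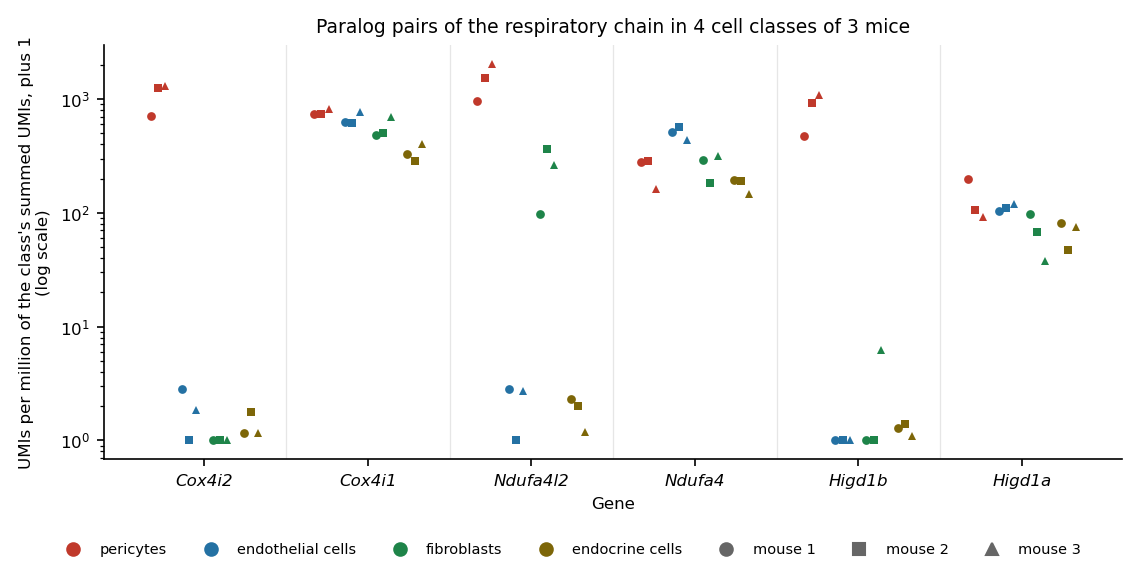
Levels of 3 mitochondrial genes of pericytes beside their paralogs, in 4 cell classes of 3 mice, as CPM plus 1 on a log axis. Cox4i2 in pericytes runs from 706 to 1309 and is at 0 in fibroblasts, whereas Cox4i1 lies between 284 and 819 in all 4 classes.

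Among ligands and partners of platelet-derived growth factor, pericytes and endothelial cells held different members. Of 8 genes in the list, 7 were tested, 2 were higher and 4 lower. Pdgfb, the ligand that recruits pericytes, stood at 0, 18.1 and 8.67 CPM in pericytes and 143, 163 and 159.9 CPM in endothelial cells (log2 fold change -4.03 ± 0.43, adjusted p = 3.00e-07, edgeR). Pdgfa (chr5:138976014-138997370), a ligand of the alpha receptor, went the other way, at 371, 425 and 539.5 CPM against 40.3, 18.9 and 28.1 CPM (4.00 ± 0.29, adjusted p = 4.91e-10). The 2 classes did not overlap for either ligand. Nrp1 (-2.47) and Nrp2 (-2.12), co-receptors of vascular growth factors, and the ligand Pdgfd (-2.08) were lower, and Pdgfrl, at 10.02, 9.03 and 17.3 CPM, was higher (3.12), while without mouse 3 only Pdgfa passed as higher. The alpha receptor Pdgfra, used in the rule, was at 0 in pericytes.

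Notch receptors and ligands also lay on both sides. Of 17 genes, 10 were tested, 4 were higher and 5 lower. Jag1, a ligand, stood at 75.1, 131 and 113 CPM against 25.7, 10.3 and 32.3 CPM (log2 fold change 2.19 ± 0.43, adjusted p = 6.92e-04, edgeR), and Nrip2 at 165, 163 and 284 CPM against 0 (at least 174-fold). Hes1, a general Notch target, was called higher by a small step (0.61), a call lost with each mouse left out in turn and without the mouse as a block. Notch4 (-5.04), Notch1 (-1.13) and the ligand Jag2 (-5.52) were lower, and Dll4 and Mfng were at 0 in pericytes against means of 148 and 108 CPM. Of these, Dll4 and Mfng missed the threshold in DESeq2 (adjusted p = 0.125 and 0.158), which called 3 of the 10 lower.

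In the list of vascular growth factors and angiopoietins, 6 of 13 genes were tested, 3 higher and 3 lower. Pgf, placental growth factor, stood at 80.2, 140.0 and 179.8 CPM against 1.83, 1.72 and 0 CPM (log2 fold change 6.95 ± 0.54, adjusted p = 1.38e-09, edgeR). S1pr3 stood at 100.2, 140.0 and 128 CPM against 0, 1.72 and 0.851 CPM (6.75), and the related receptor S1pr1 at 0 against 425, 391 and 377 CPM (at least 115-fold lower). S1pr1 and Tie1 missed the threshold in DESeq2 (adjusted p = 0.059 and 0.0838), where 1 of the 6 was lower. Angpt1, the ligand that steadies vessels through Tek, stood at 40.1, 54.2 and 58.5 CPM in pericytes and 0 in endothelial cells and fell below the filter, while Tek itself was lower in pericytes (-3.07). Vegfa was called higher (1.35), with pericyte levels of 90.2, 67.7 and 30.3 CPM, lost the call without mouse 1 or mouse 2 and was no longer tested without the 13 members, when its levels were 34.8, 14.4 and 33.1 CPM.

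For transforming growth factor beta and bone morphogenetic proteins, 18 of 30 genes were tested, 5 higher, 7 lower and 6 not passing, with a median of -0.44. Bmp5 stood at 65.1, 63.2 and 80.2 CPM against 0 (at least 55.7-fold), the receptor Bmpr1a at 85.2, 58.7 and 82.3 CPM against 11.0, 3.43 and 3.40 CPM (log2 fold change 3.82), and the latent binding protein Ltbp1 at 155, 81.3 and 189 CPM against 38.5, 42.9 and 37.4 CPM (1.90). Receptors and inhibitors known from endothelium were lower, namely Eng (-3.39), Acvrl1 (-2.35), Bmpr2 (-2.21), Tgfbr2 (-2.16), Smad6 (-4.48) and Smad7 (-1.50), as was the ligand Tgfb1 (-2.31). Tgfb2 was called higher (0.94, adjusted p = 0.0375, edgeR), a call lost without mouse 3 (adjusted p = 0.738).

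Mesenchymal signals known to act on beta cells were few. Of 17 genes, 10 were tested, 4 were higher and 1 lower, and 2 were higher and 3 lower of 8 without the 13 members. Without mouse 2 or mouse 3 there were also 2 higher, and without mouse 1 there were 2 lower. Igfbp7, a secreted binding protein, was lower in pericytes, at 3401, 3360.1 and 5599 CPM against 10005, 11082 and 13912 CPM (log2 fold change -1.49 ± 0.25, adjusted p = 4.27e-05, edgeR). Igfbp5 stood at 631, 203 and 986 CPM against 45.8, 0 and 0.851 CPM, with the call lost when mouse 2 was left out (adjusted p = 0.261). Tcf7l2, a factor of the Wnt pathway, passed narrowly (1.03, adjusted p = 0.023) and lost the call without the 13 members (0.136). Sfrp1 was at 0 in pericytes without those 13, Wnt4 stood at 55.1, 85.8 and 13.0 CPM with them and 0, 21.6 and 11.8 CPM without, and Fgf7 was at 0.

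Transcription factors of pancreatic mesenchyme were present. Of 15, 9 were tested, 5 were higher and 2 lower. Hand2 (chr8:57320983-57324633) stood at 180.3, 145 and 295 CPM against 3.67, 0 and 0.851 CPM (log2 fold change 7.13 ± 0.46, adjusted p = 1.25e-10, edgeR), Tcf21 at 30.1, 72.3 and 95.3 CPM against 0 and Meis1 at 65.1, 31.6 and 56.3 CPM against 5.50, 12.02 and 3.40 CPM (3.02). Hand2 was higher than every endothelial value in each mouse. Hlx (-3.11) and Foxf1 (-1.01) were lower, Foxf1 not without mouse 2 or mouse 3, and Nkx3-2, used to label this lineage in mice, was at 0. Without mouse 2 or mouse 3, 1 factor was lower. Of 17 regulators of smooth muscle, 8 were tested, with Tbx3 (2.97) and Hic1 (1.29) higher and Mkl2 (-2.12) and Klf4 (-0.78, adjusted p = 0.0499, edgeR) lower, and Klf4 lost the call with each mouse left out in turn and Hic1 without mouse 2 (adjusted p = 0.0725), while 4 of 12 were higher without mouse 1. The shares over all genes tested were 16.5% higher and 18.2% lower. Myocd, the myocardin gene, stood at 5.01, 18.1 and 41.2 CPM and Srf at 20.04, 22.6 and 30.3 CPM, both below the filter.

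Basement membrane genes were mostly lower and interstitial matrix genes mostly higher in pericytes. For the basement membrane, 15 of 19 genes were tested, 3 were higher and 9 lower, with a median of -1.40. Col4a1, the main collagen of the basement membrane, stood at 751, 759 and 600.2 CPM against 2151, 2328 and 2215 CPM (log2 fold change -1.63 ± 0.27, adjusted p = 3.77e-05, edgeR), and Hspg2, perlecan, at 30.1, 18.1 and 17.3 CPM against 422, 374 and 447 CPM (-4.34). Both were lower in the pericytes of each mouse. Lamb1 (-3.31), Nid2 (-4.75), Col15a1 (-5.21), Col4a2 (-1.51) and Sparc (-1.40) were also lower. Lama2 (5.53), Lamb2 (1.60) and Col18a1 (2.93) were higher, the first 2 being chains of the laminin of muscle.

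For the interstitial matrix, 25 of 28 genes were tested, 16 were higher and 2 lower, with a median of 3.22, or 3.07 with bounds. Mgp stood at 6096, 7583 and 8689 CPM against 56.8, 29.2 and 16.2 CPM (log2 fold change 7.78 ± 1.14, adjusted p = 0.00476, edgeR), and the call was lost without mouse 2 (adjusted p = 0.126) with the fold at 7.61. Bgn, biglycan, stood at 746, 447 and 715 CPM against 0, 6.87 and 6.81 CPM (7.09). Col6a1 (6.62), Col6a2 (5.56), Col5a2 (4.34), Col1a2 (6.12) and Col3a1 (6.33) were higher, and the elastic-fibre genes Fbln2 (-4.43) and Fbln5 (-4.65) lower. Fibrillar collagen was higher in fibroblasts by level, with Col3a1 at 5143, 2574 and 5636 CPM against 361, 425 and 381 CPM in pericytes and Col1a1 at 2297, 1013 and 2781 CPM against 75.1, 0 and 6.50 CPM. Fibroblasts were not tested, because mouse 1 had 4 fibroblasts and a minimum of 5 cells was set. Cygb, a globin known from stellate cells and fibroblasts, showed the same order, at 1262, 1694 and 2094 CPM in fibroblasts, 185, 226 and 279.5 CPM in pericytes and 1.83, 3.43 and 5.10 CPM in endothelial cells.

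Of 24 integrin and junction genes, 13 were tested, 3 were higher and 9 lower. Gjc1, the connexin 45 gene, stood at 175, 343 and 485 CPM against 33.0, 48.1 and 51.9 CPM (log2 fold change 2.93 ± 0.25, adjusted p = 6.80e-09, edgeR), and the integrin chains Itgav (1.62) and Itgb5 (1.59) were higher, Itgav not without mouse 3 (adjusted p = 0.0726). Gja1, connexin 43, was lower (-4.44) and so was Itga6 (-4.85), while Jam2 was at 0 in pericytes (at least 57.6-fold lower). The higher count was 5 of 13 without the 13 members, and 6 of 20 when mouse 1 or mouse 2 was left out. Genes of the pancreatic stellate cell, the retinoid-storing mesenchymal cell of the exocrine tissue, gave 2 higher and 3 lower of 10 tested of 16. Of all genes tested, 16.5% were higher and 18.2% lower. Rarres2, chemerin, stood at 361, 497 and 795 CPM against 0, 0 and 1.70 CPM (9.03), and Lrat, the enzyme of retinoid storage, was at 0 in pericytes.

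Immune genes were lower in pericytes where they concern antigen presentation. Of 21 interferon and class I genes, 19 were tested, 13 were lower, 1 was higher and 5 passed in neither direction, with a median of -1.58. B2m (ENSMUSG00000060802, chr2:122147686-122153083), the light chain of class I molecules, stood at 281, 226 and 286 CPM in pericytes and 2932, 2499.6 and 3187 CPM in endothelial cells (log2 fold change -3.41 ± 0.28, adjusted p = 3.80e-09, edgeR). Without the 13 members its pericyte level was 174, 172 and 182 CPM, lower still in each mouse. H2-K1 (-3.33) and H2-D1 (-3.14), the heavy chains, whose near-identical sequences may share reads, and the immunoproteasome genes Psmb8 (-3.17) and Psmb9 (-3.87) were lower as well, and Ifi27 was higher (0.94). Fibroblasts held 776, 747 and 1401 CPM of H2-D1 and endocrine cells 182, 135 and 218 CPM, against 496, 230.3 and 529 CPM in pericytes and 3265, 3011 and 4825 CPM in endothelial cells.

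Of 24 chemokine and immune signal genes, 13 were tested, 4 were higher and 4 lower, with 2 lower when mouse 1 or mouse 3 was left out. Il34, a ligand of the macrophage receptor Csf1r, stood at 70.1, 108 and 199 CPM against 0 (at least 113-fold, adjusted p = 1.99e-09, edgeR), and the other ligand, Csf1, at 5.01, 0 and 6.50 CPM against 23.8, 15.5 and 19.6 CPM (-2.02), where the call was lost with each mouse left out in turn and without the 13 members. Cxcl12 was lower, at 15.03, 22.6 and 62.8 CPM against 425, 515 and 279.9 CPM (-3.38). Ccl11, an attractant of eosinophils, was highest in mouse 3 at 5.01, 40.6 and 113 CPM, and fibroblasts held 841, 382 and 566 CPM.

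Immediate-early genes, which dissociation of tissue is known to induce, took 1.35%, 1.79% and 2.64% of pericyte UMIs and 0.893%, 1.30% and 2.11% of endothelial UMIs, lowest in mouse 1 and highest in mouse 3 for both. Of 20 tested, 5 were higher, 2 lower and 13 did not reach the threshold, the median being 0.41, and 3 were higher without mouse 2. Of all genes tested, 16.5% were higher and 18.2% lower. Fos stood at 2229, 3794 and 5299.8 CPM against 1082, 1830.1 and 3014 CPM (log2 fold change 0.99 ± 0.32, adjusted p = 0.0179, edgeR), with overlapping ranges but a higher value in the pericytes of each mouse. The call of Fos was lost without the mouse as a block (adjusted p = 0.089), in DESeq2 and without mouse 1 or mouse 2. Hspa1a (1.74), whose copy Hspa1b may share its reads, Atf3 (1.08), Egr1 (1.01) and Hsp90aa1 (0.85) were higher, and the shear-induced factor Klf2 (-1.44) and Ier3 (-0.99) lower. Egr1 lost the call without the block, in DESeq2 and without mouse 1 or mouse 2, Hsp90aa1 without mouse 2, Ier3 without the block and Atf3 without the 4 members that lack Rgs5 (adjusted p = 0.0708). None of the 12 cell cycle genes passed the filter, and 1 of 160 pericytes held 3 of them.

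Within the pericytes, a subset named here for Myh11 was set apart. Its cells held Myh11 and at least 1 of Cnn1, Actg2, Lmod1 and Pln, a calcium pump regulator. The 4 members that lack Rgs5 are in it, and they held Pdgfrb, Cspg4, Notch3 and Acta2 but no Abcc9 or Vtn. Whether the cells of the subset are pericytes or vascular smooth muscle cells was not tested. The subset held 9, 8 and 34 cells in mice 1, 2 and 3, which is 52.9%, 27.6% and 29.8% of pericytes (36.8% ± 14.04, SD, n = 3). With each cell thinned to 2000 UMIs, and 13 shallower cells of mouse 3 left out, 4 of 17, 3 of 29 and 25 of 101 cells met the definition, which is 23.5%, 10.3% and 24.8%. Median depths were 7777, 5938.5 and 5222 UMIs in the subset and 8742, 5864 and 3218.5 in the other pericytes. Hormone transcripts took 4.497%, 5.86% and 2.17% of UMIs in the subset and 4.85%, 5.07% and 3.51% in the others, and duct markers 0.0261%, 0.0179% and 0.0094% against 2.17%, 1.91% and 0.112%, since the 3 duct-rich cells are among the others.

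The Myh11 subset was not alike in the 3 mice, and in mice 1 and 2 most of its cells held few contractile transcripts. Per 10000 UMIs of a cell, the median of Tagln was 4.57, 5.18 and 62.0 UMIs in the subset of mice 1, 2 and 3 and 1.11, 1.24 and 2.65 in the other pericytes. At least 40 UMIs of Tagln per 10000, a limit set after seeing the values, were found in 2 of 9, 2 of 8 and 23 of 34 subset cells and in 0, 0 and 2 of the others. Acta2 was at 0 in 2, 4 and 0 cells of the subset. In mouse 1 the 2 cells richest in Tagln held 98.0% of its UMIs in the subset and no Rgs5, and in mouse 2 such a pair held 83.2%, while in mouse 3 it held 15.2%.

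Of 2166 genes tested outside the definition and the rules, 86 were higher in the subset (3.97%) and 30 lower (1.39%), with a median log2 fold change of -0.06, by edgeR with the mouse as a block. The p-values reflect variation among 3 animals and do not allow for the split having been made from the same cells and counts. The counts depend strongly on mouse 1. Without mouse 1, of 3242 genes tested only Palld was higher and only Spp1 and Clu were lower, against 83 and 26 without mouse 2 and 53 and 63 without mouse 3. Without the 13 members, 57 were higher and 31 lower of 1386, and without the 4 members that lack Rgs5, all of them in the subset, 31 and 12 of 2223. Without the mouse as a block the counts were 42 and 11.

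Genes of the contractile apparatus were among those higher in the subset. The definition itself draws on genes of this list, so a rise of genes that vary with them follows from the split. Of 15 contractile genes outside the definition, 13 were tested, 9 were higher and 4 missed the threshold, with a median of 2.11. The count was 7 of 13 without the 13 members and 7 of 13 without the 4 that lack Rgs5, 4 of 10 with cells thinned to 2000 UMIs and 0 of 14 without mouse 1, where 11 had an unadjusted p under 0.05. Tagln stood at 11918, 2492 and 6962 CPM in the subset and 219.7, 403 and 739 CPM in the other pericytes (log2 fold change 3.77 ± 0.58, adjusted p = 0.00243, edgeR), and the fold was 3.61 without the 13 members, where the call was lost (adjusted p = 0.234). In the subset cells with Rgs5 it stood at 460.1, 2492 and 6579 CPM (2.40, adjusted p = 0.008), far lower in mouse 1. Tpm2 stood at 5396, 2592 and 3785 CPM against 359.6, 397 and 739 CPM (2.96 ± 0.39, adjusted p = 1.03e-04). Flna, which cross-links actin, stood at 1025, 738 and 813 CPM against 99.9, 134 and 166 CPM (2.64 ± 0.35, adjusted p = 1.03e-04). The subset lay above the other pericytes in every mouse for all 3 genes, and the groups did not overlap. Without the 4 members that lack Rgs5 the subset stood at 748, 2592 and 3589 CPM of Tpm2 (2.06, adjusted p = 0.0113) and 192, 738 and 812 CPM of Flna (2.04, adjusted p = 0.00488), still above the others in every mouse, though the ranges of Tagln then overlapped.

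Beyond the list, the largest rises were in P2rx1, Rergl, Susd5, Xirp1 and Palld. P2rx1 (chr11:72999103-73015200), the ATP-gated channel of arterial muscle, stood at 462, 119.6 and 183 CPM against 0 in the other pericytes, at least 46.2-fold higher. P2rx1, Rergl, Susd5 and Xirp1, at 0 outside the subset, passed the filter only through it, so their folds are a description. Palld (chr8:61511433-61902690), palladin of the actin cytoskeleton, stood at 362, 279 and 708 CPM against 0, 17.5 and 18.5 CPM (log2 fold change 5.04 ± 0.49, adjusted p = 2.95e-06, edgeR). Of all genes called, Palld alone stayed higher without mouse 1. Without the 4 members that lack Rgs5, P2rx1 stood at 0, 119.6 and 168 CPM in the subset, and neither P2rx1, Palld, Rergl, Susd5 nor Xirp1 passed the filter. Rergl (at least 31.9-fold), Susd5 (19.1-fold) and Xirp1 (15.9-fold) were at 0 outside the subset, and Fbxl22 (4.35), Mical2 (3.30), Lrrc10b (3.26) and the potassium channel subunit Kcnab1 (3.19) followed.

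Other lists had few calls, beside 3.97% higher and 1.39% lower of all genes tested. Vasoactive receptors had 2 higher of 6, P2rx1 and Npy1r (2.12), and calcium and channel genes 2 of 7, the pumps Atp2a2 (2.02) and Atp2b4 (2.35). The basement membrane list had 3 of 8, Sparcl1 (2.22), Lamb2 (1.74) and Col18a1 (1.26), the interstitial matrix list 1 of 12, elastin (Eln, 3.04), and the Notch list 2 of 6, Nrip2 (2.04) and Nrarp (1.68). Id1 was the 1 higher gene of 10 in the list of transforming growth factor beta (2.01). Mcam (1.52) and Aoc3 (1.43) were higher among 18 pericyte identity genes, and the class I genes H2-K1 (-1.93) and H2-D1 (-1.34) were lower among 9. No gene passed in the lists of PDGF partners (3 tested), vascular growth factors (2), signals to beta cells (3), mesenchyme factors (3), muscle regulators (4), integrins and junctions (7), chemokines (4) or the respiratory chain (11). Of these 37 genes, 9 had an unadjusted p under 0.05, and DESeq2 called 0. Col18a1, Aoc3 and H2-D1 missed the threshold without the 13 members, and these, Lamb2, Nrarp and Mcam missed it without the 4 that lack Rgs5.

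Several genes known from capillary pericytes had higher levels in the other pericytes of mouse 3 than in its subset. They were picked, and the list of pericyte identity genes as a whole did not fall in the subset. Of its 18 genes tested with all members, 2 were higher and 0 lower, with a median log2 fold change of 0.12. Without the 13 members with other markers, 1 of 17 was higher and 4 were lower. Kcnj8, a gene of the rule, stood at 271, 119.6 and 62.9 CPM in the subset and 199.8, 280.3 and 528 CPM in the others, and Abcc9 at 241, 239 and 41.9 against 269.7, 251 and 414 CPM. Mouse 3 had the largest gap for both, the ranges overlapped, and mouse 1 had more Kcnj8 in the subset, where 1 of the 13 members with other markers gave 18 of 27 UMIs. Without the 13, Kcnj8 stood at 106, 123 and 66.9 CPM in the subset and 267, 457 and 554 CPM in the others, and Abcc9 at 141, 269.8 and 24.3 and 367, 417 and 434 CPM, lower in the subset of each mouse and with ranges that did not overlap for either gene. Without the 4 members that lack Rgs5, Kcnj8 stood at 498, 119.6 and 67.2 CPM in the subset. Kcnj8 was found in 18 of 51 subset cells and 69 of 109 others, and in 26.0% and 50.5% after thinning to 2000 UMIs. Abcc9 was found in 17 and 71 cells, Vtn in 26 and 90, and Acta2 in 45 and 50. Thinned shares were 22.0% and 53.6% for Abcc9, 32.0% and 75.3% for Vtn and 84.0% and 36.1% for Acta2.

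Further differences passed once the 13 members with markers of other types were left out. Higd1b stood at 332, 1037 and 524 CPM in the subset and 619, 882 and 1488 CPM in the others and did not pass (log2 fold change -0.74, adjusted p = 0.348, edgeR). Without the 13, the values were 341, 907 and 566 CPM and 1303, 1433 and 1561 CPM, and Higd1b was lower in the subset (-1.38, adjusted p = 0.00286). Cox4i2 (-1.03, adjusted p = 0.0237), Ednrb (-1.34, 0.0125) and Col3a1 (-1.42, 0.00631) were then lower too, having stood at -0.26, -0.45 and -0.85 with all members and not passed. Ndufa4, the common paralog of Ndufa4l2, was higher in the subset without the 13 (2.43, adjusted p = 0.00112), at 258, 147 and 304 CPM against 100.2, 50.8 and 31.0 CPM, having stood at 0.35 without passing with all members. Rgs5, of the rule, stood at 1386, 5322 and 3849 CPM in the subset and 6880.2, 8823 and 8709 CPM in the others without the 13, and its ranges did not overlap. The 1386 CPM of mouse 1 includes the 2 cells that lack Rgs5. With only the 4 such cells left out, the subset stood at 5655, 5144 and 4177 CPM. The others then stood at 3306, 5348 and 8317 CPM. These values keep the 13 members, 1 of which gave 166 of 295 UMIs of Rgs5 in the subset of mouse 1. Values with both groups of cells left out are not given.

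The genes lower in the subset were led by duct genes. Spp1 stood at 10.05, 39.9 and 5.24 CPM in the subset and 16491, 15129 and 447 CPM in the other pericytes (log2 fold change -8.99 ± 0.63, adjusted p = 1.24e-07, edgeR). Without the 13 members the Spp1 levels were 11.7, 24.5 and 0 and 0, 10.2 and 38.7 CPM. Wfdc18, Clu, Fxyd3, Epcam, Krt18, Cp and Krt8 were the next largest, with Hsd11b1 and Shisa5 after them, and Epcam went from a mean of 699 to 23.1 CPM in the other pericytes without the 13. Of the 30 genes lower in the subset, 13 could still be tested without these members and 4 of those passed, while 47 of the 66 still tested passed among the higher genes.

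**Figure D5:**
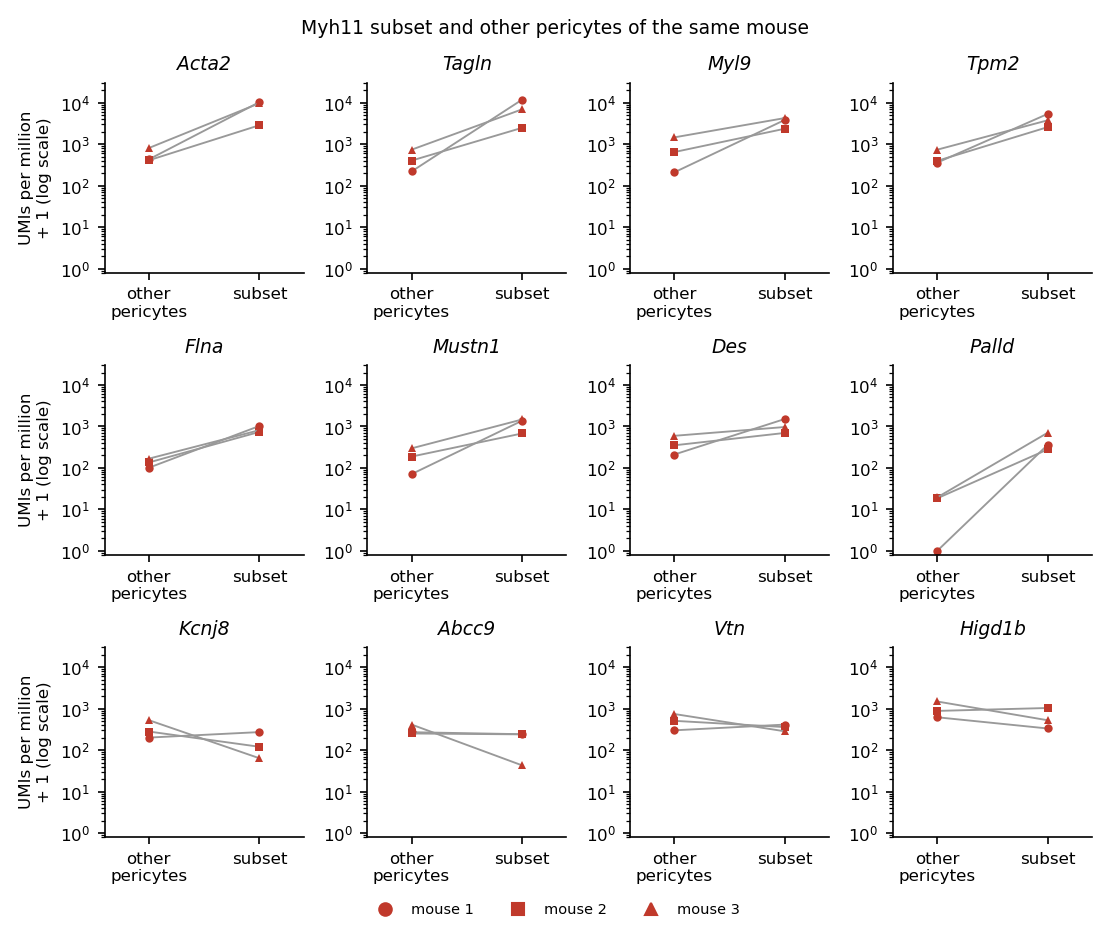
Levels of 12 genes in the Myh11 subset and the other pericytes of each mouse, as CPM plus 1 on a log axis, with a line joining the 2 values of a mouse. Lines rise in all 3 mice for the 8 contractile and actin genes of the upper rows. Those of Kcnj8, Abcc9, Vtn and Higd1b fall in mouse 3, Kcnj8 going from 528 to 62.9, while Kcnj8 and Vtn rise in mouse 1 and Higd1b rises in mouse 2. The contractile values of mouse 1 rest largely on 2 cells. Acta2, Kcnj8 and Abcc9 are genes of the rule.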

How the data were processed

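The deposited files hold UMI counts per gene and cell barcode, made by the authors with Cell Ranger 2.2 on mm10 per the submitters' processing notes, while the header of the deposited matrices names software 3.1.0. Libraries followed the single-cell 3′ version 2 chemistry per the labels. Of 31053 gene IDs, 30934 were found in GENCODE M21, which gave positions. Barcodes under 500 genes or above 15% mitochondrial UMIs were dropped. The members and all gene lists were chosen with earlier results of these data known. Doublets were marked with Scrublet in scanpy 1.11.5, left in and removed in an alternative.

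Counts were summed per mouse and class and tested with edgeR 4.0.16 under R 4.3.3 (TMM scaling after filterByExpr, a robust quasi-likelihood fit, mouse as a block, Benjamini-Hochberg adjustment over all genes tested), with fibroblast sums in the endothelial fit to share the estimate of spread. DESeq2 1.42.0, other filters, normalizations and cell limits, each mouse left out and thinned cells were alternatives. A test needed 5 cells per mouse and class. Genes of the rules were left out of counts of calls. Sums of 1 mouse come from the same animal, and their deviations correlated across 4373 genes at 0.149, 0.264 and 0.353 within mice 1, 2 and 3 and at -0.264 to 0.0554 between mice. Each sum holds counts of PCR-amplified molecules with UMIs, and depth per sum sets its precision.

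Genes named were the 10 largest changes per direction with a mean of at least 50 CPM and a 2-fold change in every mouse's direction, up to 4 genes per list with the smallest p, the rule genes and the paralog pairs. Some genes that met this rule are not reported here. Other list members were picked after their values were seen. The test across genes was checked on simulated data. Of simulated 2-fold changes, 24.19% were called in the endothelial comparison and 26.15% in that of the subset. For 4-fold changes the shares were 92.54% and 94.03%, so smaller differences can miss the threshold. The simulation gave all genes the same spread and had no sums led by a few cells. Scrublet marked 1, 0 and 3 members in mice 1, 2 and 3. Sums and figures were made with pandas 2.3.3, numpy 2.4.6 and matplotlib 3.10.9 in Python 3.11.15, and intervals with scipy 1.17.1.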

Additional observations from a re-analysis of the deposited data

Results flagged for a closer look

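Among barcodes outside the kept cells, 10 held at least 3 of the 7 pericyte genes and came under none of the comparisons. Of these, 2 were in mouse 1, 0 in mouse 2 and 8 in mouse 3, and 6 of the 10 had under 500 genes. They were taken from 8672 barcodes left out by the limits on genes and mitochondrial transcripts.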

How the results depend on the processing

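Against endothelial cells, 718 genes were higher and 792 lower. With no filter on low counts they were 1226 and 1362, with cells thinned to 2000 UMIs 229 and 227 of 1084 tested, and with the classes made again from thinned cells 275 and 287 of 1247, where fewer genes were tested. Other alternatives stayed within 1.5 times, with 585 to 840 higher and 666 to 926 lower when a mouse was left out and 674 and 753 with no replicate block. For the subset, 86 were higher and 30 lower. DESeq2 gave 47 and 14, no filter 153 and 114, no replicate block 42 and 11, at least 4 markers 49 higher, thinning 7 and 0 (edgeR, with 19 genes lower at an unadjusted p under 0.05), and leaving out the 13 members with markers of other types 57 higher, and leaving out the 4 that lack Rgs5 31 higher and 12 lower, while leaving out a mouse gave 1 to 83 higher and 2 to 63 lower. The same-mouse block therefore changed calls in the subset, and against endothelial cells those of 9 list genes (Cox7b, Egr1, Fos, Hes1, Ier3, Itga1, Klf4, Sfrp1 and Stim1). With a mouse left out, 15, 21 and 19 list genes that were still tested lost their call against endothelial cells without mice 1, 2 and 3, and 8, 1 and 10 gained one. The limit of 5% hormone transcripts cost 19 calls and DESeq2 21. The share of pericytes stayed between 1.18% and 2.45%. Log2 values turned sign for Higd1a against endothelial cells (-0.000344 with no filter, -0.32 without the 4 members that lack Rgs5, -0.25 to 0.47 with a mouse left out) and for named genes of the subset that had not passed. With a mouse left out these ran from -0.24 to 0.46 for Ndufa4l2, -0.85 to 0.96 for S1pr3, -0.76 to 1.03 for Ndufa4, -0.020 to 0.47 for Pdgfa, -1.16 to 0.62 for Ednrb, -0.53 to 0.23 for Cox4i2, -0.081 to 0.70 for Igfbp7, -0.098 to 0.63 for Nrp1 and -0.085 to 1.08 for Rarres2. Ndufa4l2 was 0.00119 with RLE and 0.00309 in DESeq2, S1pr3 0.12 in DESeq2, Ndufa4 -0.013 with no block, and Pdgfa -0.00834 and Igfbp7 -0.068 with thinned cells. With 4 markers and without the 13, Igfbp7 was -0.29 and -0.19, Nrp1 -0.35 and -0.24, Mef2a -0.13 and -0.034 and Ctnnb1 0.29 and 0.30. Hand2 was -0.24 with 4 markers and Rarres2 -0.064 without the 13. Without the 4 that lack Rgs5, Cox4i2 was 0.042, Ndufa4 -0.097 and Ndufa4l2 0.24. The cause was not tested. The alternatives without the 13 members, without the 4 that lack Rgs5, with classes made again and without fibroblast sums were chosen after seeing the data. For the subset, limits of 10% mitochondrial and 5% hormone transcripts and classes made again from thinned cells were not run, since under 5 cells remained in a mouse, nor were any for fibroblasts. Depth limits genes under the filter, and most receptors and channels fell there.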
